A study of Rattus norvegicus with 6 samples.

Results

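The nuclei described here are the colon enterocytes of sham rats and of rats given dextran sulfate sodium (DSS) and then placebo capsules, chosen as all nuclei the authors assigned to enterocytes in those treatments. They number 5423 of the 9800 enterocyte and T cell nuclei analysed in the series, 2464 from sham and 2959 from placebo rats, and the question is which epithelial programmes differ between uninjured and DSS-injured colon. All animals were male Wistar rats, an outbred stock. Sham rats drank water. Placebo rats drank 5% DSS for 3 days and water for the next 5 days, with 2 capsules without drug a day for 4 days, from day 4 to day 7, so DSS and capsules cannot be told apart in this comparison, and the tissue was taken in the recovery phase rather than under DSS. Rats given DSS and capsules with 50 µg PL8177, a melanocortin 1 receptor agonist, are not compared here. Their libraries were in the model fit, to estimate the spread between animals, and so also in the scaling and the filter on low counts. That filter kept 9424 genes with them and 8071 without them. Nuclei were isolated from frozen colon and their RNA was counted as unique molecular identifiers (UMIs), so that copies of 1 captured molecule count once. The tag in a nucleus name was read as its rat, which gives 3 sham rats (GR12, GR13 and GR15) and 3 placebo rats (GR22, GR23 and GR24). The sample labels do not list the animals, so every value per rat rests on that reading, and values of 3 rats are given in this order throughout.

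The colon epithelium is a single sheet of cells that arises from stem cells in the crypt base and matures while it moves to the surface. Cells low in the crypt secrete chloride and bicarbonate, in which the apical channel CFTR takes part, whereas surface enterocytes absorb sodium and chloride, burn butyrate from the microbiota, and carry transmembrane mucins and adhesion molecules on their brush border. DSS damages this sheet, exposes the tissue to bacteria and is followed by inflammation and regrowth from the crypts.

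The enterocyte libraries held 929, 827 and 708 nuclei in the sham rats and 1347, 304 and 1308 in the placebo rats, with 448970 to 3182681 UMIs a sham rat and 319125 to 3953079 UMIs a placebo rat. Depth per nucleus differed among rats, with a median of 2331 UMIs in GR12, 437 in GR13, 520 in GR15, 2026 in GR22, 612 in GR23 and 970 in GR24. No pair of libraries shared more than 1 barcode. GR23 stood apart, with 685 T cell nuclei beside its 304 enterocytes where each other sham or placebo rat had 19 to 91, and without it 592 genes were higher and 631 lower at an unadjusted p below 0.05 and a log2 fold change past 0.5, against 552 and 608 with it. The label was checked against 15 enterocyte markers, which summed to 276 to 528 UMIs per 10000 in sham and 179 to 236 in placebo rats, with no overlap (5 of 14 tested lower and 1 higher at an unadjusted edgeR p below 0.05, a list that shares genes with those described below). Defining markers of neutrophils were at 0 in every sham rat and at most at 0.0282 per 10000 in a placebo rat, with Cxcr2, Mpo and Fcgr3a at 0 throughout. T cell markers stood at 0.279 to 0.512 and 0.356 to 0.733 per 10000, macrophage and dendritic cell markers at 0.832 to 1.93 and 0.318 to 1.41, and goblet cell markers at 1.66 to 4.80 and 1.35 to 3.93, all overlapping between the treatments. Smooth muscle markers were at 1.33 to 2.70 and 1.28 to 2.54, and those of B and plasma, tuft, enteroendocrine and endothelial cells, fibroblasts and enteric neurons and glia each at 0.771 or less. At the same unadjusted p, 1 of 3 tested T cell markers was higher and 1 of 6 smooth muscle markers lower, and no tested marker of the other cell types passed. The part of other cells in the results was not tested. Summed nuclei cannot tell a change in the make-up of the enterocyte population along the crypt from a change of level in each nucleus, and this holds for every gene below.

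Levels are CPM, counts scaled to a library of 1000000 with edgeR's trimmed mean of M values (TMM), and log2 fold changes are placebo minus sham. Without scaling, 3 UMIs are 0.943, 6.68 and 6.06 CPM in the sham and 0.759, 9.4 and 1.7 CPM in the placebo rats. Values near or below these rest on few UMIs, also where rats are said not to overlap. edgeR's quasi-likelihood test called 0 of 9424 genes (0% of the genes tested) where a call needed an adjusted p under 0.05 with a log2 fold change past 0.5 in either direction, and the smallest adjusted p was 0.058. At an unadjusted p below 0.05 and the same fold change, 552 genes (5.86%) were higher and 608 (6.45%) lower in placebo. With library size as the only scaling these were 853 and 353, and that scaling moved the median log2 fold change of all genes from 0.02 to 0.16. With 1 rat left out, the higher genes numbered from 344 (without GR24) to 786 (without GR12). The lower genes then numbered from 386 (without GR13) to 865 (without GR12). DESeq2, the alternative count test, called 32 genes higher (0.34% of 9420) and 75 lower (0.796%), all of which had an unadjusted edgeR p below 0.05, and limma-voom called 3 higher and 7 lower. Among 9135 genes with at least 50 UMIs, the 3 placebo rats all lay above the 3 sham rats for 947 genes (10.4%) and all below them for 827 (9.05%), or for 1365 and 488 with library size as the only scaling. In simulated counts with 200 changed genes, the edgeR step recovered 1.0% of them at a log2 fold change of 1, 66.5% at 2 and 91.5% at 3, so a log2 fold change near 1 was rarely detectable by edgeR with 3 rats against 3. Below, a gene is called only where a named test called it, and the unadjusted counts of each list of genes are set beside 5.86% and 6.45%. The lists were drawn up with earlier results of these data known, so their counts describe these nuclei and are not independent evidence. List medians depended on single rats. With each of the 9 rats of the fit left out in turn, the median of 25 of 26 lists moved over 1.5 times or across 0 (glucocorticoid response was the exception), so no direction is read from a median, and the lowest and highest such values are given with it.

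**Figure D1:**
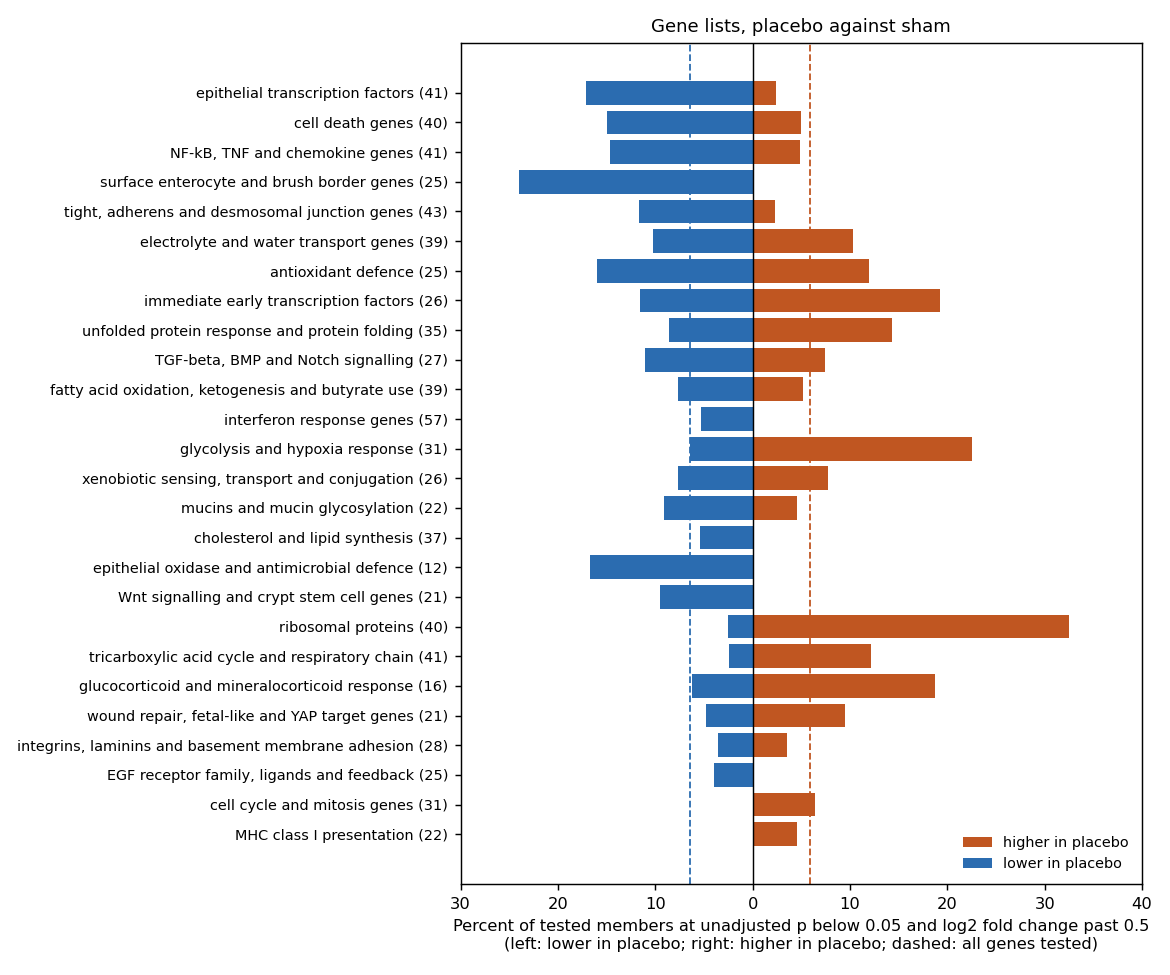
Share of the tested members of each gene list (number tested in brackets) at an unadjusted edgeR p below 0.05 and a log2 fold change past 0.5, with members lower in placebo to the left and higher to the right, and dashed lines for all genes tested. Surface enterocyte genes reach 24.0% lower and 0% higher, whereas ribosomal proteins reach 32.5% higher and 2.5% lower.

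Several genes of mature surface enterocytes had lower values in placebo rats. Of 25 tested members, 6 (24.0%) were lower and 0 higher at an unadjusted p below 0.05, against 6.45% and 5.86% of all genes, and the list's median log2 fold change was -0.20 against 0.02 over all genes. That median was -0.041 with library size as the only scaling, -0.067 without sham rat GR13, -0.48 without sham rat GR12 and -0.43 without placebo rat GR22. Genes of this list, among them Muc13, Krt20, Ceacam1 and Plac8, also stand in the study's own list of enterocyte genes chosen on these nuclei, so the count is a description and not independent evidence of a direction. Muc13, a transmembrane mucin of the brush border, stood at 5730.2, 11537 and 8524 CPM in the sham rats and at 2264, 2219.7 and 2279 CPM in the placebo rats. The placebo rats lay close together and all below the sham rats, 3.81 times lower on average (log2 fold change -1.93, SE 0.29, edgeR adjusted p = 0.058), and DESeq2 called the gene (adjusted p = 1.4e-07). Ceacam1, an adhesion molecule of the apical membrane, measured 403, 393 and 256 CPM in sham and 131, 104 and 115 CPM in placebo rats. It too showed no overlap (log2 fold change -1.58, SE 0.26, edgeR adjusted p = 0.060) and was called by DESeq2 (adjusted p = 3.1e-05).

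Krt20, the keratin of differentiated surface cells, gave 1438, 9259 and 2345 CPM in sham and 1097, 1162 and 1023 CPM in placebo rats. The groups did not overlap, but GR13 stood far above the other sham rats, and neither edgeR (log2 fold change -1.99, SE 0.58, adjusted p = 0.22) nor DESeq2 (adjusted p = 0.17) called it. Over the 20 alternative settings of the closing section, the log2 fold change of Krt20 ran from -2.41 to -0.79. Plac8 had 715, 819.6 and 625 CPM against 521, 423 and 332 CPM, again without overlap. Ezr, which encodes the microvillus linker ezrin, and Cdhr5, a cadherin of the microvillus tips, had log2 fold changes of -0.53 and -0.53 with overlapping rats. Muc13, Krt20, Plac8 and Ceacam1 were the tested members lower without overlap, beside 9.05% of all genes with at least 50 UMIs, a share from which nothing is read for members so chosen. Slc51b, below the filter on low counts, was higher without overlap. Of the 4 simple epithelial keratins tested, Krt20 alone reached an unadjusted p below 0.05. Krt18 was at 15, 5.07 and 10.2 CPM in sham and 7.17, 2.82 and 8.17 CPM in placebo rats (log2 fold change -0.72, SE 0.60, edgeR adjusted p = 0.64), Krt8 had a log2 fold change of 0.73 (edgeR adjusted p = 0.49) and Krt19 of 0.12 (edgeR adjusted p = 0.93). Of 22 tested mucin and mucin glycosylation genes, 1 was higher and 2 lower, with Muc13 and the sialyltransferase gene St3gal4 lower and the fucosyltransferase gene Fut4 higher (11.2, 5.07 and 18.3 against 35.8, 22.6 and 32.7 CPM). The list's median was 0.18 (-0.15 without GR24 to 0.20 without GR23).

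**Figure D2:**
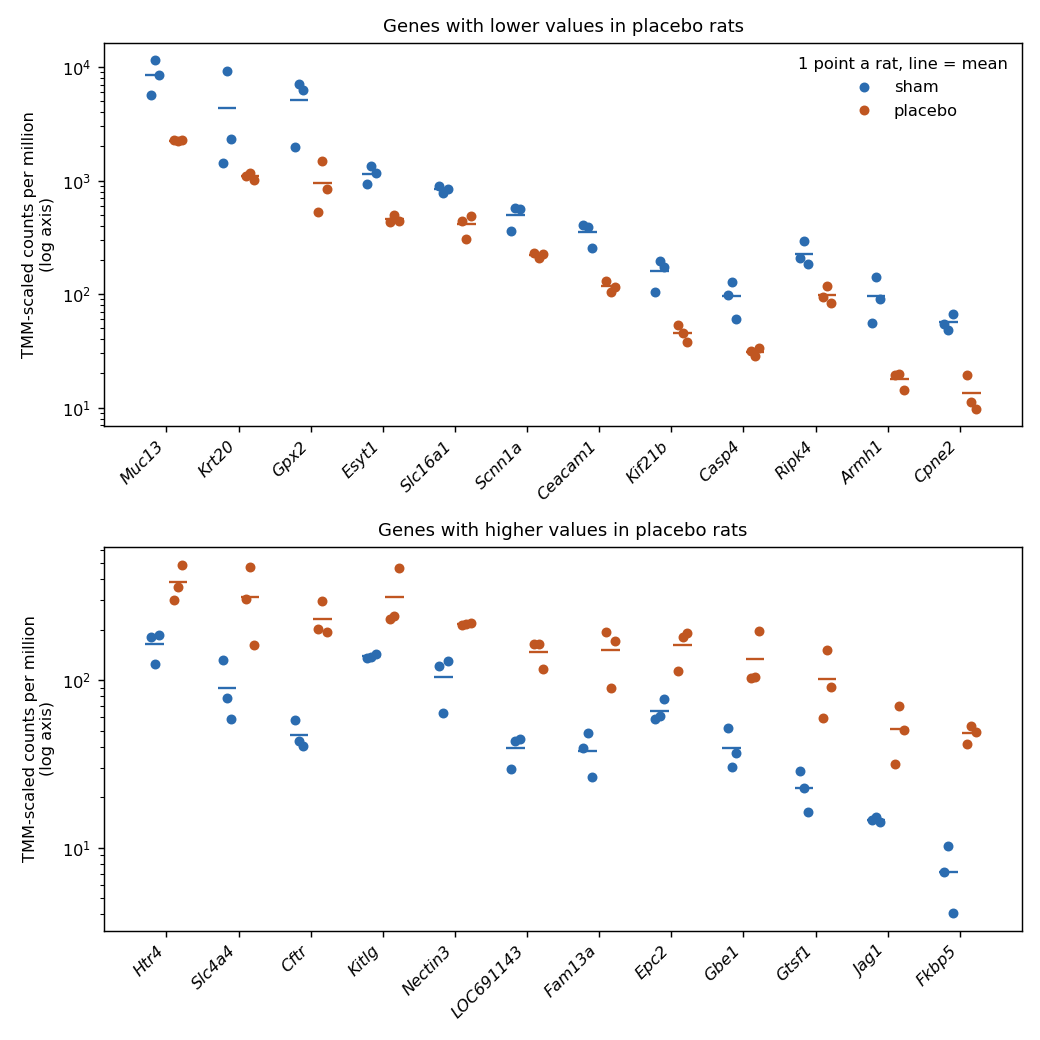
TMM-scaled CPM (log axis) of 12 genes with lower and 12 with higher values in placebo rats, chosen after their values were seen, 1 point a rat and a line at the mean of 3 rats. No gene shown has a placebo rat inside the sham range, and the placebo values of Muc13 lie within 2219.7 to 2279 CPM while the sham values spread from 5730.2 to 11537 CPM.

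Some ion transport genes passed the unadjusted threshold in each direction. Of 39 tested members, 4 (10.3%) were higher and 4 (10.3%) lower at an unadjusted p below 0.05, against 5.86% and 6.45% of all genes. The median of -0.20 was -0.043 with library size as the only scaling and -0.041 in nuclei with at least 500 genes (-0.28 without GR22 to -0.10 without GR23). Cftr, the chloride and bicarbonate channel of crypt cells, was at 57.7, 43.1 and 40.6 CPM in sham and at 202, 299 and 195 CPM in placebo rats. All placebo values lay above all sham values (log2 fold change 2.24, SE 0.31, edgeR adjusted p = 0.058), and DESeq2 called it (adjusted p = 6.3e-07). Slc4a4, the basolateral sodium bicarbonate cotransporter that feeds bicarbonate secretion, measured 132, 78.7 and 58.9 CPM in sham and 305, 471 and 162 CPM in placebo rats. The rats did not overlap and DESeq2 called it higher (log2 fold change 1.72, SE 0.46, edgeR adjusted p = 0.20, DESeq2 adjusted p = 0.021). The calcium-activated potassium channel gene Kcnn4 (9.99, 7.61 and 22.3 against 26.5, 39.5 and 29.4 CPM) and the potassium channel subunit gene Kcne3 (6.86, 2.54 and 2.03 against 11.9, 19.7 and 8.71 CPM), both of which support chloride secretion, were higher without overlap and were called by neither test. Kcne3 lay below the level of 3 UMIs in GR13 and GR15 (6.68 and 6.06 CPM without scaling), and Kcnn4 near it in GR13. Both separations thus rest on few UMIs. Of other genes on this side, Slc12a2, Ano1 and Kcnq1 overlapped between the treatments and passed the unadjusted threshold in neither direction. Htr4, a serotonin receptor gene outside the list, had 182, 124 and 187 CPM in sham and 303, 358 and 489.5 CPM in placebo rats. DESeq2 called it higher (log2 fold change 1.21, SE 0.25, adjusted p = 0.0040).

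On the absorptive side, Scnn1a, the alpha subunit of the epithelial sodium channel, stood at 362, 573 and 558 CPM in sham and 232, 206 and 225 CPM in placebo rats. DESeq2 called it lower (log2 fold change -1.16, SE 0.23, edgeR adjusted p = 0.12, DESeq2 adjusted p = 0.0023), and no rats overlapped. Slc9a3r1, a scaffold that holds apical transporters in place, gave 98.3, 302 and 189 CPM against 61.1, 76.2 and 65.9 CPM and was called lower by DESeq2 (adjusted p = 0.041). Atp12a, the colonic proton-potassium pump, was lower with overlap (log2 fold change -1.29, edgeR adjusted p = 0.34). The potassium channel gene Kcnk5 (664, 733 and 607 against 418, 443 and 451 CPM), not assigned here to absorption or secretion, was lower without overlap. Slc26a3, the chloride-bicarbonate exchanger that marks surface enterocytes, had 8549, 16475 and 7477 CPM in sham and 8460.4, 5525 and 6002 CPM in placebo rats. It did not reach an unadjusted p of 0.05 (log2 fold change -0.70, SE 0.34, edgeR adjusted p = 0.42), and placebo rat GR22 lay inside the sham range. Aqp8, a water channel, and Car4, a membrane carbonic anhydrase, had log2 fold changes of -0.62 and -0.43 with edgeR adjusted p of 0.60 and 0.47.

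**Figure D3:**
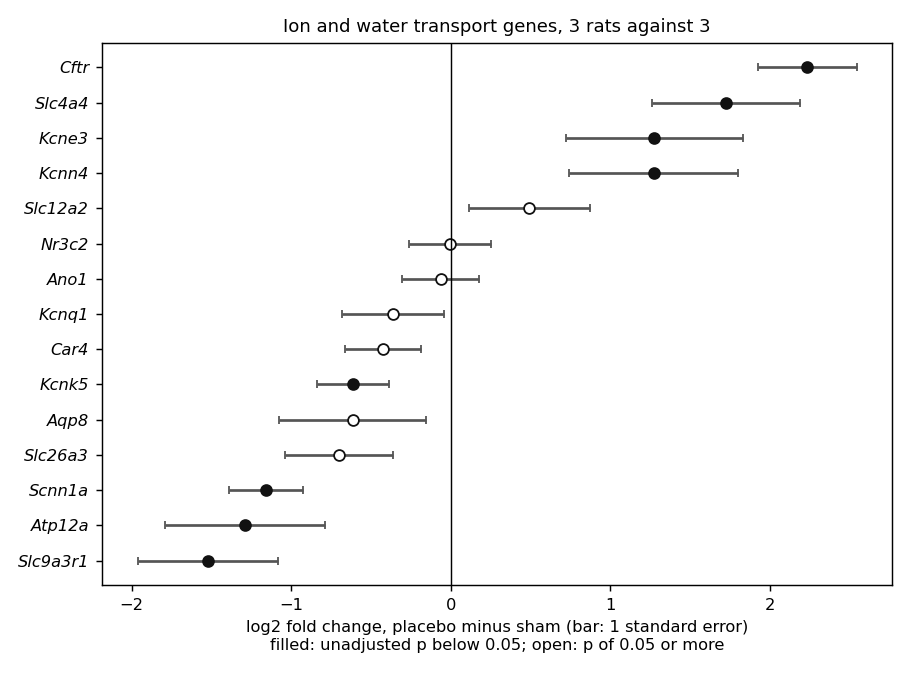
Log2 fold change, placebo minus sham, of 15 ion and water transport genes from the 39 tested, chosen after their values were seen, as points with 1 standard error of the edgeR fit and filled where the unadjusted p is below 0.05. Cftr, Slc4a4, Kcne3 and Kcnn4 lie to the right of 0 by more than 1 standard error, and Scnn1a, Atp12a, Slc9a3r1 and Kcnk5 to the left. Slc12a2, Ano1 and Kcnq1 passed the unadjusted threshold in neither direction.

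In fuel use, Slc16a1, the monocarboxylate transporter that carries butyrate and lactate, was at 896, 779 and 849 CPM in sham and 438, 305 and 492 CPM in placebo rats. The groups were well apart, with a log2 fold change of -1.02 (SE 0.24), and DESeq2 called it lower (adjusted p = 0.0078). The mitochondrial trifunctional protein genes Hadha (362, 487 and 422 against 267, 344 and 169 CPM) and Hadhb (159, 147 and 144 against 122, 93.1 and 91.5 CPM) were lower without overlap at an unadjusted p below 0.05. The coactivator gene Ppargc1b (250.2, 284 and 219 against 335, 463 and 382 CPM) and the acyl-CoA synthetase gene Acsl3 were higher. Over the 39 tested members of fatty acid oxidation, ketogenesis and butyrate use, 2 (5.13%) were higher and 3 (7.69%) lower, near the background, and the median of -0.04 was 0.09 with library size as the only scaling (-0.21 without GR22 to 0.066 without GR24).

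Of 31 tested glycolysis and hypoxia genes, 7 (22.6%) were higher and 2 (6.45%) lower, against 5.86% and 6.45% of all genes, with a median of 0.26 that was -0.10 when nuclei were thinned to 300 UMIs (0.17 without GR22 to 0.34 without GR23). Pdk1, a kinase that turns off the entry of pyruvate into the tricarboxylic acid cycle, stood at 12.5, 7.61 and 14.2 CPM in sham and 25.1, 39.5 and 63.2 CPM in placebo rats. P4ha1, a subunit of collagen prolyl hydroxylase, gave 56.5, 25.4 and 42.6 CPM and 91, 107 and 218 CPM. Both were free of overlap and called higher by DESeq2 (log2 fold changes 1.84 and 1.67, adjusted p = 0.028 and 0.024). Gapdh (28.4, 33 and 30.5 against 70.5, 36.7 and 49 CPM) was higher without overlap, Ldha, Pfkl, Gpi and Egln3 were higher with overlap, and Egln3 turned to a log2 fold change of -0.10 in thinned nuclei. Arnt, the partner of the hypoxia-inducible factors and of the aryl hydrocarbon receptor, was lower (218, 167 and 183 against 114, 84.6 and 109 CPM), as was the carbonic anhydrase gene Car9, which overlapped. Of 41 tricarboxylic acid cycle and respiratory chain genes, 5 (12.2%) were higher, among them Ogdh and Atp5f1a without overlap, and 1, Idh2, lower, with a median of 0.41 (0.15 without GR22 to 0.47 without GR23). The list summed to 42.1, 36.0 and 39.1 per 10000 scaled counts in sham and 54.2, 35.9 and 44.2 in placebo rats, high in GR22 and GR24 and not in GR23, as was the mitochondrial transcript CYTB (186, 713 and 343 against 8450.3, 378 and 8468 CPM), and the part of RNA from outside the nucleus was not tested. Genes of fuel use outside these lists were also called. Gbe1, the glycogen branching enzyme (51.5, 30.4 and 36.5 against 103, 104 and 196 CPM), was called higher by DESeq2 (adjusted p = 0.0031), and Pygb, a glycogen phosphorylase (498, 1043 and 544 against 270.2, 274 and 328 CPM), was called lower (adjusted p = 0.011).

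Of 25 tested genes of antioxidant defence, 3 (12%) were higher and 4 (16%) lower, against 5.86% and 6.45% of all genes. The median of 0.15 was -0.18 in thinned nuclei and -0.21 with equal nuclei a rat (0.048 without GR15 to 0.24 without GR13). Gpx2, the glutathione peroxidase of the gut epithelium, was at 1972, 7038 and 6277 CPM in sham and 525, 1495 and 839 CPM in placebo rats. The sham rats spread widely, yet all lay above the placebo rats, 5.38 times on average (log2 fold change -2.43, SE 0.59, edgeR adjusted p = 0.19), and DESeq2 called it lower (adjusted p = 0.0018). Txnrd1, the cytosolic thioredoxin reductase, had 489, 858 and 648 CPM against 289, 296 and 402 CPM and was called lower by DESeq2 (log2 fold change -1.01, adjusted p = 0.024). The peroxiredoxin genes Prdx1 (109, 83.7 and 129.9 against 77.9, 62 and 64.3 CPM) and Prdx2 (37.4, 60.9 and 77.1 against 26.3, 25.4 and 19.6 CPM) were lower without overlap, while Sod1, Gss and Txn1 were higher, Txn1 with overlap. Gpx1, Gpx4, Prdx3, Prdx5 and Prdx6 passed in neither direction.

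The factor NRF2 acts on many of these genes through antioxidant response elements, so their promoters were searched for the letters TGACNNNGC on both strands in the 250 bases before the annotated start (RefSeq, rat build GRCr8, which is not the build the counts were made on). Of the 25 tested antioxidant genes, 21 matched a promoter by symbol and 4 of those held the motif, Gpx2, Sod2, Prdx1 and Gclm, against 10.1% of 33469 promoters. Among the members that differed, it was in 2 of the 4 lower and 0 of the 3 higher. The windows of the 2 lower genes with the motif are printed to show its place, which begins 13 bases before the start of Gpx2 (chr6:101230034-101230283, minus strand) and 135 bases before that of Prdx1 (chr5:135383656-135383905, plus strand), both on the strand opposite to the gene, with the motif in capitals. A match of letters is a description and not a bound site.
Gpx2: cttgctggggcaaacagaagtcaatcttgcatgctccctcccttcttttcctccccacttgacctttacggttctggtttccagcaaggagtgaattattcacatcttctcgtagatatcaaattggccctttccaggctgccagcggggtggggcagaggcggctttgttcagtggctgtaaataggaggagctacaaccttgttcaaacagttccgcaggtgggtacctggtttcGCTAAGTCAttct
Prdx1: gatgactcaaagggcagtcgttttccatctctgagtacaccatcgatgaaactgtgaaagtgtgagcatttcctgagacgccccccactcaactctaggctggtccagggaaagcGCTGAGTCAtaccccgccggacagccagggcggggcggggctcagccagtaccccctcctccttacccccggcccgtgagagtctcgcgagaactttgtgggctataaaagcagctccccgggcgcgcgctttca

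Of 43 tested tight, adherens and desmosomal junction genes, 1 (2.33%) was higher and 5 (11.6%) lower, against 5.86% and 6.45% of all genes. The median of -0.10 was 0.05 with library size as the only scaling (-0.16 without GR24 to -0.0035 without GR23). The nectins, adhesion molecules of adherens junctions, differed in direction. Nectin2 was at 233, 332 and 288 CPM in sham and 186, 133 and 129.6 CPM in placebo rats, and DESeq2 called it lower (adjusted p = 0.044). Nectin3 was at 122, 63.4 and 129.9 CPM in sham and 214, 217 and 220.0 CPM in placebo rats, and DESeq2 called it higher (adjusted p = 0.030). Ocln, the tight junction protein occludin, measured 539, 589 and 536 CPM against 258, 336 and 437 CPM, and Shroom3, an organiser of apical actin, 2387, 2009.6 and 2182 CPM against 1547, 1489 and 1159 CPM, both lower without overlap and called by neither test. Cgnl1 and Cgn, the cingulins, were lower with log2 fold changes of -1.09 and -0.65. Integrin, laminin and basement membrane genes were at the background, with 1 of 28 higher (Fermt1, kindlin-1, 47.4, 33 and 38.6 against 69, 81.8 and 69.2 CPM) and 1 lower (Col7a1), and a median of -0.02 that was 0.14 with library size as the only scaling (-0.12 without GR24 to 0.076 without GR15).

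Of 41 tested genes of NF-kB, TNF and chemokine signalling, 2 (4.88%) were higher and 6 (14.6%) lower, against 5.86% and 6.45% of all genes. The median of -0.11 was 0.04 with library size as the only scaling (-0.24 without GR12 to -0.037 without GR13). Ccl20, the chemokine that draws CCR6-bearing lymphocytes and dendritic cells, gave 4.06, 0 and 4.06 CPM in sham and 10.7, 42.3 and 39.2 CPM in placebo rats. In sham rat GR13 no UMI was seen, which allows up to 6.68 CPM (3 UMIs) without scaling. The placebo rats lay above the sham rats, and DESeq2 called the gene higher (log2 fold change 3.02, SE 0.84, edgeR adjusted p = 0.21, DESeq2 adjusted p = 0.019) from 147 UMIs in all. Its promoter holds the NF-kB letters GGNNNTTCC, present in 15.4% of the 33469 windows when both strands are read, starting 89 bases before the start on the opposite strand. The window (GRCr8, chr9:91836909-91837158, plus strand) is printed with the motif in capitals.
Ccl20: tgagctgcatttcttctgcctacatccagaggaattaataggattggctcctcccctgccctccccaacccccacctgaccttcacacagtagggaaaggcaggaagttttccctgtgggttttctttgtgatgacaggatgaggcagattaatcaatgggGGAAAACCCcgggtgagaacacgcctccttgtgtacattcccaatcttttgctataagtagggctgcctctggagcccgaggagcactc

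The other higher gene of that list was Ripk2, the adaptor kinase of NOD receptors (9.99, 2.54 and 10.2 against 22.9, 19.7 and 21.8 CPM). Its value in GR13 lay below the level of 3 UMIs there (6.68 CPM without scaling). The lower genes included the cytokine gene Il18 (202, 246 and 156 against 128, 121 and 101 CPM), the interleukin 22 receptor gene Il22ra1 (100.2, 112 and 144 against 88.1, 53.6 and 59.9 CPM), the TNF receptor gene Tnfrsf1a (38.1, 55.8 and 36.5 against 30.1, 8.46 and 9.26 CPM) and Relb, each without overlap, and Nfkbiz and Bcl3 with overlap. None of these 6 was called by DESeq2, and Tnfrsf1a in GR23 was near the level of 3 UMIs (9.4 CPM without scaling). Tnfsf13, which encodes the B cell factor APRIL, was at 100.2, 20.3 and 52.8 CPM in sham and 12.7, 14.1 and 7.62 CPM in placebo rats and was called lower by DESeq2 (log2 fold change -2.49, adjusted p = 0.0019). Of 12 tested oxidase and antimicrobial genes, 0 were higher and 2 (16.7%) lower at an unadjusted p below 0.05, against 5.86% and 6.45% of all genes. The median of -0.50 (-0.71 without GR12 to -0.25 without GR22) was -0.99 in thinned nuclei and -0.81 with equal nuclei a rat. Duox2, the hydrogen peroxide-forming oxidase of the apical membrane, stood at 251, 348 and 244 CPM against 96.5, 181 and 167 CPM without overlap (edgeR adjusted p = 0.22), and Plet1 overlapped.

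Interferon response genes were uneven among the sham rats. Of 57 tested, 43 had negative and 14 positive log2 fold changes, but only 3 (5.26%) were lower and 0 higher at an unadjusted p below 0.05 (Trim25, Stat3 and Ifnlr1), near the background of 6.45%. Their summed level ran from 46.7 to 161 per 10000 scaled counts in sham and from 29.2 to 105 in placebo rats. The median of -0.49 lay within the SD of 0.99 of the list's median level between rats of 1 treatment (log2 scale), and it was -1.01 without placebo rat GR23 and 0.15 without sham rat GR13. MHC class I presentation genes gave 1 of 22 higher (RT1-CE1) and 0 lower, with a median of -0.32 that was -0.55 without GR12 and 0.0065 without GR13, and MHC class II genes gave 0 of 7 higher and 1 lower, RT1-DOa, from 48 UMIs.

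Of 40 tested cell death genes, 6 (15%) were lower and 2 (5.0%) higher, against 6.45% and 5.86% of all genes, and the median of -0.18 was -0.38 without GR12 and 0.0023 without GR13. Casp4, the inflammatory caspase that senses cytosolic lipopolysaccharide, had 98, 127 and 60.9 CPM in sham and 31.5, 28.2 and 33.8 CPM in placebo rats. Ripk4, a kinase of epithelial differentiation, had 209, 292 and 183 CPM and 93.6, 118 and 82.8 CPM. Pmaip1, the p53 target NOXA, had 121, 233 and 129.9 CPM and 47.8, 56.4 and 77.3 CPM. All 3 were free of overlap and called lower by DESeq2, with log2 fold changes of -1.58, -1.23 and -1.39 and adjusted p of 0.0019, 0.0046 and 0.013. The apoptosome gene Apaf1 (299.9, 528 and 321 against 195, 259 and 145 CPM) and the initiator caspase gene Casp8 (258, 327 and 223 against 153, 166 and 88.8 CPM) were lower without overlap and not called, and Casp9 overlapped. The higher genes were the BH3-only gene Bcl2l11, BIM (22.5, 40.6 and 40.6 against 55.4, 47.9 and 114 CPM), and the adaptor gene Fadd (25.9, 20.3 and 18.3 against 30.6, 39.5 and 35.9 CPM), which were not called either. Outside the list, the growth arrest gene Gadd45a (431, 1179.9 and 471 against 277, 322 and 272 CPM) and the antiproliferative gene Tob1 (326, 1188 and 353 against 205, 183 and 193 CPM) were called lower by DESeq2 (adjusted p = 0.031 and 0.014), and in both GR13 was the highest sham rat.

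Among hormone and stress responses, Fkbp5, a cochaperone that is a classical target of the glucocorticoid receptor, was at 7.18, 10.1 and 4.06 CPM in sham and 41.8, 53.6 and 49 CPM in placebo rats. It had the largest positive log2 fold change of the 15 leading higher genes (2.74, SE 0.40, edgeR adjusted p = 0.058, DESeq2 adjusted p = 4.9e-05) and rested on 313 UMIs. Dusp1, a phosphatase that is a target of the same receptor and an immediate early gene, gave 32.8, 17.8 and 12.2 CPM and 125, 31 and 58.3 CPM. DESeq2 called it higher (adjusted p = 0.047), with placebo rat GR23 inside the sham range. Of 16 tested glucocorticoid and mineralocorticoid response genes, 3 (18.8%) were higher, Mt1 being the third, and 1 (6.25%) lower, Scnn1a, against 5.86% and 6.45% of all genes. The median of 0.33 was -0.10 in thinned nuclei (0.25 without GR22 to 0.47 without GR15). Other targets did not reach an unadjusted p of 0.05. Tsc22d3 (GILZ) was at 34.3, 48.2 and 44.7 CPM against 61.4, 36.7 and 70.2 CPM (edgeR adjusted p = 0.61), Sgk1 at 256, 282 and 372 CPM against 429, 279 and 371 CPM (edgeR adjusted p = 0.80), and Nr3c2, the mineralocorticoid receptor, overlapped fully.

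Immediate early genes gave 5 of 26 higher (19.2%) and 3 lower (11.5%), against 5.86% and 6.45% of all genes. The median of 0.13 was -0.026 in thinned nuclei (-0.0078 without GR22 to 0.20 without GR12). Jun was higher without overlap (93.9, 185 and 122 against 219, 217 and 232 CPM), Dusp1, Atf3, Egr1 and Fosb were higher with overlap, and Junb (329.5, 672 and 302 against 242, 206 and 299 CPM), Dusp5 and Dusp6 were lower. Genes of the unfolded protein response and of protein folding (the unfolded protein response list below) gave 5 of 35 higher (14.3%) and 3 lower (8.57%), against the same shares of all genes. That list also holds heat shock genes. Its median of 0.24 (0.060 without GR22 to 0.38 without GR12) was 0.051 with equal nuclei a rat. The chaperone genes Dnajc3 (24, 20.3 and 26.4 against 39.4, 53.6 and 48.5 CPM), Hspd1 (20.9, 17.8 and 12.2 against 34.6, 64.9 and 28.9 CPM), Hsp90b1 and Hsp90aa1 were higher without overlap and Atf3 with overlap, while Manf and Ppp1r15a were lower without overlap and Dnajb1 overlapped. DESeq2 called no gene of the unfolded protein response and protein folding list.

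Transcription factors of epithelial identity gave 7 of 41 lower (17.1%) and 1 higher (2.44%), against 6.45% and 5.86% of all genes, although the median was 0.13 (0.053 without GR13 to 0.26 without GR12). Elf3 (1457, 11608 and 5885 against 698, 1904 and 1628 CPM) and Hnf4a (1317, 3943 and 2568 against 1098, 1422 and 1474 CPM), both drivers of enterocyte differentiation, had log2 fold changes of -2.17 and -0.97 with overlapping rats, and in both GR13 was the highest rat. Over the 20 alternative settings these ran from -2.64 to -1.38 for Elf3 and from -1.29 to -0.54 for Hnf4a. Stat3, Runx1 and Casz1 were lower without overlap, Stat6 and Hes1 with overlap, and Esrp2, a splicing factor, was higher. Cdx2, which sets intestinal identity, was at 337, 208 and 313 CPM against 389.6, 324 and 371 CPM (edgeR adjusted p = 0.57). Outside the list, the retinoic acid receptor gene Rara (31.8, 76.1 and 62.9 against 17.2, 8.46 and 13.6 CPM) and the corepressor gene Tle3 (152, 145 and 134 against 84.3, 73.3 and 62.1 CPM) were called lower by DESeq2 (adjusted p = 0.0069 and 0.028). Myb, a factor of proliferating crypt cells, was called higher (25, 22.8 and 24.4 against 53, 113 and 53.4 CPM, DESeq2 adjusted p = 0.047).

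In crypt and growth programmes few members passed the unadjusted threshold, which 5.86% of all genes passed as higher and 6.45% as lower. Of 21 Wnt signalling and stem cell genes, 0 were higher and 2 (9.52%) lower, the receptors Lrp5 and Lrp6, and the median of -0.08 was 0.05 with library size as the only scaling (-0.14 without GR15 to -0.039 without GR22). The stem cell marker Lgr5 was too low to test, with 21 UMIs in all 6 rats. Of 31 cell cycle genes, 2 (6.45%) were higher, Pcna from 53 UMIs and Ezh2, and 0 lower, with a median of 0.02 (-0.25 without GR23 to 0.084 without GR13) that was 0.33 in thinned nuclei. Mki67 was at 15.6, 10.1 and 4.06 CPM against 10.5, 2.82 and 8.17 CPM (edgeR adjusted p = 0.77). Jag1, a Notch ligand, stood at 14.7, 15.2 and 14.2 CPM in sham and 31.5, 70.5 and 50.6 CPM in placebo rats. All 3 sham values lay below the placebo values, but those of GR13 and GR15 rest on few UMIs (3 UMIs are 6.68 and 6.06 CPM there without scaling). DESeq2 called Jag1 higher (log2 fold change 1.72, SE 0.37, adjusted p = 0.024). With Id3 it made 2 of 27 higher genes (7.41%) of TGF-beta, BMP and Notch signalling, against 3 lower (11.1%), Smad4, Nrarp and Hes1, with a median of 0.13 (0.016 without GR13 to 0.14 without GR43). Of 25 genes of the EGF receptor family and its feedback, 0 were higher and 1 (4.0%) lower, Dusp6, and the median of -0.11 was 0.02 with library size as the only scaling (-0.19 without GR24 to 0.0032 without GR12). Kitlg, which encodes stem cell factor, was called higher by DESeq2 (136, 137 and 144 against 231, 243 and 469 CPM, adjusted p = 0.030).

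Wound repair, fetal-like and YAP target genes, a programme known from regenerating colon, gave 2 of 21 tested higher (9.52%), Lgals3 and Serpinb5, and 1 lower, Plaur (4.76%). The shares of all genes were 5.86% and 6.45%. The list's median was -0.04 (-0.28 without GR24 to 0.22 without GR12). Of the 55 genes of that list, 49 were found and 19 had at least 50 UMIs, so most could not be tested. Anxa1, one of its tested members, was at 77.4, 86.3 and 58.9 CPM against 41.1, 31 and 62.6 CPM (edgeR adjusted p = 0.51). Xenobiotic genes gave 2 of 26 higher (7.69%), the aryl hydrocarbon receptor gene Ahr and Nat2, and 2 lower (7.69%), Arnt and Por, with a median of 0.05 (0.032 without GR22 to 0.19 without GR23) that was 0.38 in nuclei with at least 500 genes. Cholesterol and lipid synthesis genes gave 0 of 37 higher and 2 lower (5.41%), with a median of 0.20 (-0.048 without GR22 to 0.38 without GR12). Only 2 of 36 Hox genes could be tested, and neither reached an unadjusted p of 0.05.

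Ribosomal protein genes had the largest share of higher members of any list with at least 10 tested genes, 13 of 40 (32.5%), with 1 lower, Rpl24. The shares of all genes were 5.86% higher and 6.45% lower. The list's median was 0.60 (0.27 without GR22 to 1.03 without GR12), and the SD of its level between rats was 0.50. The list summed to 15.5, 17.1 and 15.5 per 10000 scaled counts in sham and 20.3, 11.7 and 17.4 in placebo rats, so the groups overlapped and GR23 was the lowest of the 6 rats. Rps2 was at 14.7, 10.1 and 12.2 CPM in sham and 33.4, 22.6 and 30.5 CPM in placebo rats, and Rpl4 at 24.3, 17.8 and 22.3 CPM and 45.4, 33.8 and 41.4 CPM. DESeq2 called none of these genes. Their messages are cytoplasmic and short, and CYTB, encoded by mitochondria and also outside the nucleus, was at 186, 713 and 343 CPM in sham and 8450.3, 378 and 8468 CPM in placebo rats. It was high in GR22 and GR24 and within the sham range in GR23, and DESeq2 called it higher (log2 fold change 3.82, SE 0.87, adjusted p = 0.022). The part of RNA from outside the nucleus in the ribosomal result was not tested.

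The remaining leading genes belonged to none of the lists. On the lower side, Esyt1, an endoplasmic reticulum to plasma membrane tether, was at 937, 1342 and 1159 CPM in sham and 433, 502 and 439 CPM in placebo rats, and the kinesin gene Kif21b at 105, 195 and 175 CPM and 53, 45.1 and 38.1 CPM. Both had placebo values close together and log2 fold changes of -1.32 (SE 0.22) and -1.77 (SE 0.29), with an edgeR adjusted p of 0.060 and 0.060. Armh1 (55.5, 142 and 91.4 against 19.3, 19.7 and 14.2 CPM), Cpne2, a copine (54.9, 48.2 and 67 against 19.3, 11.3 and 9.8 CPM), S100pbp (132, 159.8 and 129.9 against 52.1, 53.6 and 26.7 CPM), Alpk3 (19.3, 30.4 and 42.6 against 7.17, 8.46 and 6.53 CPM) and Ahdc1 (267, 304 and 302 against 156, 121 and 129 CPM) were called lower by DESeq2 and did not overlap. The unnamed loci AABR07035791.1 and AABR07035790.2 had log2 fold changes of -2.83 and -2.22. Hist1h1b, a linker histone gene, had a log2 fold change of -2.73 from 101 UMIs and no adjusted p in DESeq2. The p38 kinase gene Mapk14 (535, 802 and 859 against 311, 381 and 270.1 CPM), the MEK1 gene Map2k1 (264, 713 and 418 against 208, 212 and 205 CPM) and the collagen receptor gene Ddr1 (70.5, 208 and 177 against 49.2, 62 and 31.6 CPM) were called lower by DESeq2 as well (adjusted p = 0.0072, 0.044 and 0.011).

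On the higher side, LOC691143 was at 29.6, 43.1 and 44.7 CPM in sham and 164, 164 and 116 CPM in placebo rats (log2 fold change 1.97, SE 0.31, edgeR adjusted p = 0.058). Gtsf1, a factor of the piRNA pathway, measured 28.7, 22.8 and 16.2 CPM and 59.5, 152 and 91.5 CPM, and Fam13a 39.3, 48.2 and 26.4 CPM and 193, 90.3 and 172 CPM. These 3 had no overlap and were called higher by DESeq2 (adjusted p = 4.9e-05, 0.0014 and 0.0039). The nuclear genes Nrde2 (24.7, 25.4 and 16.2 against 56.9, 56.4 and 68.6 CPM), Ercc6l2, a DNA repair helicase (41.5, 20.3 and 26.4 against 77.2, 98.7 and 108 CPM), and Epc2, a subunit of a histone acetyltransferase complex (58.7, 60.9 and 77.1 against 114, 181 and 191 CPM), were likewise called. So were Cpped1, Rnls, which encodes renalase, Plpp2, a lipid phosphatase, and the unnamed locus AABR07002969.1, with log2 fold changes of 1.63, 1.13, 1.59 and 1.35.

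Because Slc26a3, a chloride bicarbonate exchanger of surface cells, was seen in fewer placebo nuclei, nuclei were thinned to 300 UMIs and divided by whether they kept a Slc26a3 UMI, a division chosen after the data were seen and given without a test. Shallower nuclei were left out, 252 of sham and 103 of placebo rats. Nuclei with a Slc26a3 UMI made up 67.7%, 87.3% and 69.6% of sham and 59.4%, 43.0% and 49.7% of placebo enterocytes. Muc13 was at 65.3 to 113 UMIs per 10000 in sham and 21.4 to 34.2 in placebo rats among nuclei with Slc26a3, and at 27.0 to 74.8 and 8.44 to 12.5 among nuclei without it. Gpx2 stood at 28.6 to 76.9 and 5.27 to 20.7 per 10000 with Slc26a3 and at 16.8 to 62.8 and 6.56 to 18.4 without it, where GR12 was inside the placebo range. Cftr was at 2.23, 0 and 0.541 per 10000 in sham and 7.11, 7.58 and 5.27 in placebo nuclei without Slc26a3, where the 0 of 25800 UMIs in GR13 allows up to 1.16 per 10000. With Slc26a3 it was at 0.158 to 0.532 in sham and 1.15 to 1.86 in placebo rats, without overlap but from 10, 8 and 2 UMIs in sham and 44, 4 and 24 in placebo rats. Htr4 followed Cftr, with 1.07 to 1.66 and 3.04 to 4.53 per 10000 with and 1.16 to 3.12 and 5.50 to 8.01 without Slc26a3. A Slc26a3 UMI was also present in 10.2% of sham and 13.1% of placebo T cell nuclei thinned alike, so the division does not separate surface from other nuclei cleanly. Muc13, Htr4 and Cftr differed without overlap on both sides of the division. Slc4a4 and Scnn1a differed less evenly. Slc4a4 overlapped on both sides, and Scnn1a was lower without overlap on both, by 4.85 against 2.04 per 10000 on average with and 2.23 against 1.33 without Slc26a3. Without Slc26a3 its sham rat GR12, at 1.45, stood close to placebo rat GR22, at 1.42, and both sides held rats with few Scnn1a UMIs (3 in GR23 with Slc26a3, and 6 in GR23 and 7 in GR13 without it).

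**Figure D4:**
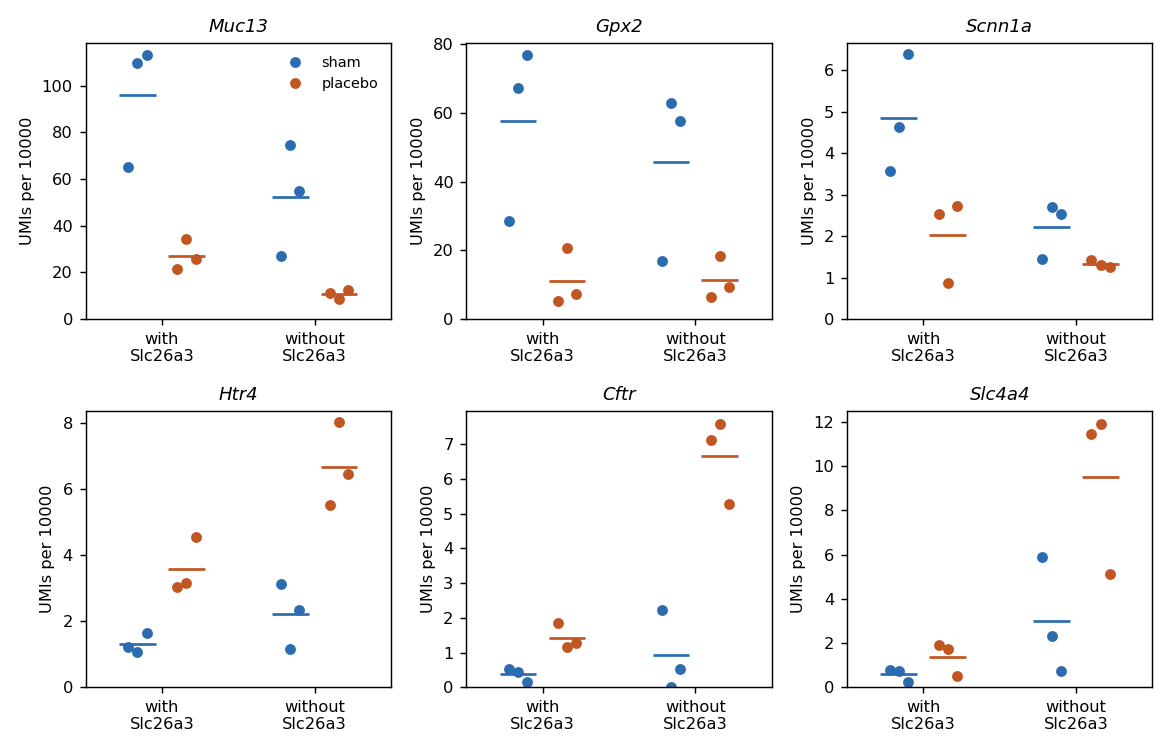
UMIs per 10000 of 6 genes in enterocyte nuclei thinned to 300 UMIs, for nuclei with and without a Slc26a3 UMI, 1 point a rat and a line at the mean of 3 rats. Placebo points of Muc13 lie below and those of Htr4 above all sham points in both kinds of nuclei, and those of Cftr reach 5.27 to 7.58 in nuclei without Slc26a3.

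The same thinned nuclei show how widely genes were seen, set beside 108 sham and 107 placebo T cell nuclei, whose median depths before thinning were 1172 and 617 UMIs. T cell nuclei of GR23 were left out because they numbered 685 against 19 to 91 in each other sham or placebo rat. The placebo T cell table was read for 15108 of 17388 genes, so its depth is too low and its thinned shares are too high by an amount not measured here. A Muc13 UMI was present in 58.5% to 83.6% of nuclei in sham and 33.0% to 34.3% in placebo rats, against 14.8% of sham and 11.2% of placebo T cell nuclei, and Krt20 was seen in 31.6% to 81.7% and 20.8% to 25.2%, against 7.41% and 0.935%. Without thinning the shares were 83.6% to 89.2% and 51.0% to 74.4% for Muc13. Ceacam1 was seen in 5.43% to 9.73% of sham and 1.11% to 3.01% of placebo nuclei, and Scnn1a in 8.32% to 13.5% and 3.33% to 6.02%. The placebo T cell share of both was 1.87% with an exact binomial 95% interval of 0.227% to 6.59%, too wide to tell the placebo shares from it. Without thinning the Ceacam1 shares were 12.8% to 35.5% and 7.89% to 18.5%, which overlap across these depths. Gpx2 was seen in 39.3% to 70.8% of sham and 14.6% to 38.9% of placebo nuclei, and in 23.1% and 12.1% of T cell nuclei (placebo interval 6.63% to 19.9%, which holds GR22 and GR24).

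For genes with higher values in placebo rats the T cell nuclei give no clean background. Cftr was seen in 0.658% to 3.13% of sham and in 9.56%, 12.2% and 7.88% of placebo enterocyte nuclei, but also in 5.56% of sham and 5.61% of placebo T cell nuclei. Without thinning the Cftr shares were 1.93% to 13% and 18% to 32.4%, against 20.8% of sham and 15.4% of placebo T cells. Slc4a4 was seen in 1.15% to 5.51% of sham and 12.3%, 16.7% and 7.00% of placebo nuclei, and in 6.48% and 5.61% of T cell nuclei. For both genes the sham T cells thus stood above every sham enterocyte library, and no level was read as background. Htr4 was seen in 3.24% to 5.43% of sham and in 10.9%, 17% and 14.2% of placebo nuclei, against 3.70% and 5.61% of T cell nuclei, and without thinning in 5.56% to 33.3% and 28.6% to 44.5%. Fkbp5, a gene that T cells also express, was seen in 0% to 0.442% of sham and 1.19% to 2.18% of placebo nuclei and in 2.78% and 0.935% of T cell nuclei.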

How the data were processed

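Nuclei from frozen colon were sequenced with 10x Genomics droplets. The deposited values are whole UMI counts per gene and nucleus, which the authors made with Cell Ranger 6.0.1 on the rat genome Rnor 6.0 with introns included, cleaned with CellBender, filtered to nuclei under 5% mitochondrial reads that held 200 genes or more, then assigned to cell types from Seurat 4.0.3 clusters. Counting intronic reads raises long genes relative to short ones, so levels were not compared between genes. No column of per-sample values was set aside.

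Here the counts were summed per tag and tested with edgeR 4.0.16 in R 4.3.3 (filterByExpr, TMM with factors of 0.888 to 1.13, glmQLFit and glmQLFTest, Benjamini-Hochberg adjustment over 9424 genes, 9 libraries of 3 treatments in 1 fit). Calls needed an adjusted p under 0.05 with a log2 fold change past 0.5 in either direction. DESeq2 1.42.0 and limma 3.58.1 (voom) were alternatives, and the closing section gives the others. The edgeR step was tested on simulated data, with 0, 10 and 7 false calls at log2 fold changes of 1, 2 and 3. Simulated results for DESeq2, on whose calls the text leans, are not reported here, so its false calls are not known from this text. Replicates are 3 rats a treatment if a tag is a rat, which the labels do not state. The members, gene lists, tests and the rule for named genes were chosen with earlier results of these data known. The text names, for each direction, the 15 genes with the smallest edgeR p among those with at least 50 UMIs, an absolute log2 fold change above 0.5 and no overlap of rats, members of 29 gene lists with an unadjusted p below 0.05 (up to 6 a list, more where a list was short enough to give all), genes called by DESeq2, Muc13, Krt18 and markers. Some genes that this rule selects are not reported here. Other members of the lists (Krt8, Krt19, Aqp8, Car4, Cdx2, Mki67, Lgr5, Anxa1, Tsc22d3, Sgk1 and Nr3c2) were named after their values were seen. List medians are given for lists with at least 10 tested members. Enterocyte doublets were called with Scrublet (scanpy 1.11.5) in 60 of 8782 nuclei (31 sham and 12 placebo) and kept. Shares of nuclei and levels in single rats carry counting error only, and droplets can hold free RNA. Promoter windows and gene starts came from RefSeq GRCr8 and the first promoter of each symbol was used. Python 3.11.15 with numpy 2.4.6, pandas 2.3.3 and matplotlib 3.10.9 served for the rest. The T cells other than as background and the PL8177 comparison were not used here. Of genome sequence, only the promoter windows were used.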

Additional observations from a re-analysis of the deposited data

How the results depend on the processing

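No paired analysis was possible because the tags carry no numbers that pair rats across treatments. The edgeR count of 0 called genes was 107 with DESeq2, 10 with limma-voom, 51 without a filter on low counts, 7 with at least 50 UMIs, 5 with library size as the only scaling, 9 in nuclei thinned to 300 UMIs and between 0 and 8 with 1 rat left out (3 without sham rat GR12, 1 without placebo rat GR23, and 3, 1 and 8 without PL8177 rats GR41, GR43 and GR44). It was again 0 with RLE scaling, with sham and placebo rats alone, in nuclei with at least 500 genes, with doublets left out and with equal nuclei a rat. Cftr and Muc13 were called in 9 of 20 alternatives each, LOC691143 in 8 and Ceacam1 and Fkbp5 in 6 each. Genes higher at an unadjusted p below 0.05 numbered 853 with library size alone, 294 with equal nuclei and 344 to 786 with 1 rat left out, lowest without placebo rat GR24, next without sham rat GR15 at 361. Genes lower numbered 353, 354 and 386 to 865, lowest without sham rat GR13. Library size alone moved the median of all genes from 0.02 to 0.16. Genes without overlap were 947 higher and 827 lower of 9135 (10.4% and 9.05%), 583 and 677 of 6023 (9.68% and 11.2%) with at least 200 UMIs, 571 and 552 of 4995 (11.4% and 11.1%) in thinned nuclei and 1365 and 488 of 9135 with library size alone.

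Of 520 list medians under the alternatives, 469 moved by less than the SD between rats. With thinned nuclei the median was -0.53 for surface enterocyte genes, -0.10 for glycolysis, -0.18 for antioxidant defence, -0.22 for junctions, -0.15 for integrins, 0.16 for Wnt, -1.10 for MHC class I, -0.28 for NF-kB, -0.99 for oxidases, 0.11 for the unfolded protein response, -0.10 for glucocorticoid response and 0.21 for transcription factors. With equal nuclei it was 0.12 for glycolysis, -0.21 for antioxidant defence, 0.085 for integrins, -0.44 for NF-kB, -0.81 for oxidases and 0.051 for the unfolded protein response. With library size alone it was -0.043 for transport, 0.048 for junctions, 0.14 for integrins, 0.051 for Wnt, 0.044 for NF-kB, 0.39 for the unfolded protein response, 0.26 for transcription factors and 0.025 for the EGF receptor family. With limma-voom it was -0.085 for transport and 0.088 for integrins, and in nuclei with at least 500 genes -0.041 for transport, 0.38 for xenobiotic genes, 0.35 for antioxidant defence and 0.040 for transcription factors. With 1 rat left out it ran from -0.19 to 0.0032 for the EGF receptor family, -0.24 to -0.037 for NF-kB, -0.048 to 0.38 for cholesterol, -0.71 to -0.25 for oxidases, 0.053 to 0.26 for transcription factors, -0.12 to 0.076 for integrins, -0.15 to 0.20 for mucins, -0.48 to -0.067 for surface enterocyte genes, -0.16 to -0.0035 for junctions, 0.15 to 0.47 for the respiratory chain, 0.060 to 0.38 for the unfolded protein response and -0.28 to 0.22 for wound repair. Of 2974 values of named genes, 120 were called where edgeR had not called them, and 1 changed sign, Egln3 at -0.10 in thinned nuclei. The cause of these shifts was not tested. In simulated counts the edgeR step rarely recovered a log2 fold change of 1 at this depth and number of rats, and DESeq2 was not refitted with rats left out.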
